A study of Setaria viridis with 40 samples.

Results

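The change over 2 h in unstressed leaves of *Setaria viridis* ME034 was measured by comparing 4 libraries sampled at 2 h of the control treatment (ctrl_2h) with 4 libraries sampled at its start (ctrl_0h). These are 8 of the 40 libraries of a series in which leaves were sampled under control, high light or high temperature conditions at 0, 1, 2 and 4 h. *S. viridis* is a C4 grass, and ME034 is the accession used. Both groups received no light or heat treatment. They came from plants 13 days after sowing, kept in a day of 12 h at 31 °C and 250 µmol photons m-2 s-1, and ctrl_0h was taken 4 h after the lights came on. Each library was made from 2 segments of 2 cm cut from the mid part of the blade of the fourth true leaf once fully expanded, and joined material from 2 plants. Time of day and time since the start of the experiment advance together in these groups and cannot be told apart. The comparison asks which transcripts of a leaf change between these times without any stress.

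Transcript levels in leaves change through the day, partly with the circadian clock and partly with light, sugar and the state of the chloroplast. In the morning and around midday the leaf makes transitory starch, which beta-amylases, phosphorylases and glucan kinases break down, mostly at night. In C4 leaves the mesophyll fixes CO2 through carbonic anhydrase and phosphoenolpyruvate carboxylase, and the bundle sheath releases it again to Rubisco. Heat shock proteins are chaperones that hold or refold other proteins, and their transcripts are known to react to heat and to follow the time of day.

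The libraries read the 3′ end of each mRNA. Levels are given as CPM, the counts scaled to the same library size with TMM factors. Total counts lay between 3457646 and 3992858 at ctrl_2h. At ctrl_0h they were 3556205 in replicate A and 3072945 in B, but 1422507 in C and 1835391 in D. Replicates C and D of ctrl_0h were also unusually alike. With all control libraries thinned to 1422507 counts, chi-square per degree of freedom over genes was 1.37 between C and D, and 3.21 to 21.9 for the other 23 pairs of replicates in the 4 control groups. C and D still differed by more than counting noise, for which the median term would be 0.455 and was 0.618, so they were kept as 2 libraries. Separate preparations of 1 sample could differ by as much, and whether C and D came from separate plants cannot be told apart. Leading counts below are also given with C and D summed as 1 library. Replicate B of ctrl_0h carried the second index AK10751, whereas the other 7 libraries carried AK2941. Over 14 libraries with AK10751 and 25 with AK2941 in all conditions, a term for the index called 317 genes higher and 389 lower with AK10751 (4.94% of the tested genes), of which 57 were also called between ctrl_0h and ctrl_2h.

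Among 14293 tested genes, 688 were up-regulated and 538 were down-regulated at ctrl_2h relative to ctrl_0h (edgeR quasi-likelihood test, adjusted p under 0.05). These are 4.81% and 3.76% of the tested genes, or 8.58% together. Counts of called members of gene lists below are to be set against these shares. The changes reached at least 2-fold in 412 of the up-regulated and 212 of the down-regulated genes, and at least 5-fold in 82 and 33. The 4 libraries of ctrl_2h did not overlap with those of ctrl_0h in 1039 of the 1226 called genes, while 15.9% of all tested genes did not overlap. With the index as a covariate, 710 genes were up-regulated and 527 down-regulated. With C and D summed, 530 genes were up-regulated and 451 down-regulated. With both left out, the counts were 329 and 260. Without ctrl_0h replicate B, which leaves the index AK2941 only, 503 up-regulated and 337 down-regulated genes were called, and without ctrl_2h replicate B or D the down-regulated genes were 346 or 355. On the log2(TPM + 1) scale, limma called 879 up and 448 down, so that up-regulated genes made up 66.2% of the calls and not 56.1%. The median log2 fold change of all tested genes was 0.04.

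**Figure D1:**
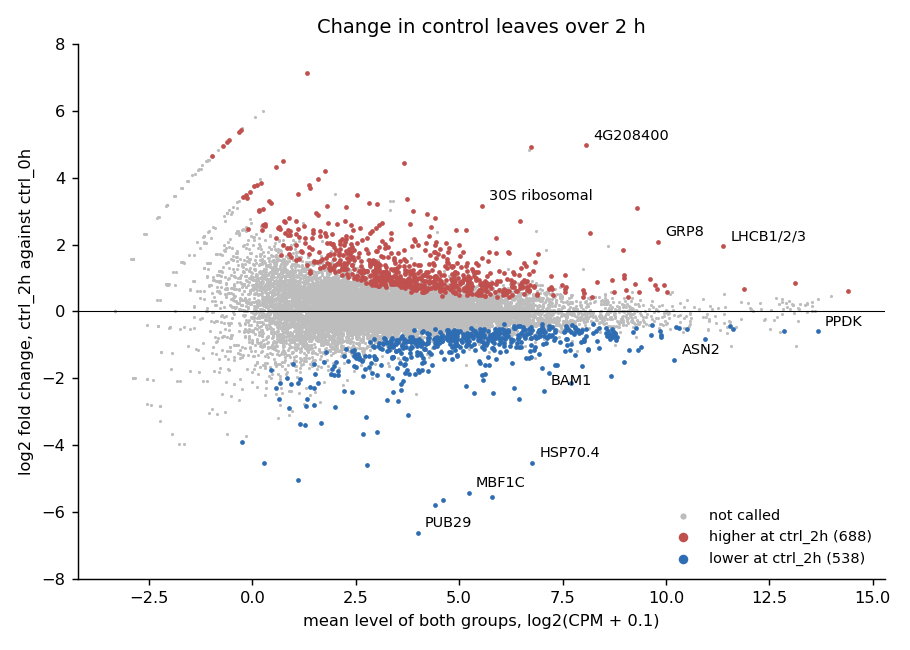
Each point is 1 of the 14293 tested genes, placed by the mean level of both groups (x axis, log2 of CPM plus 0.1) and by its log2 fold change at ctrl_2h against ctrl_0h (y axis). The 688 red genes were higher and the 538 blue genes lower at ctrl_2h, grey genes were not called, and HSP70.4 and MBF1C stand among the deepest falls.

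Heat shock genes and their regulators were among the genes that fell furthest. MBF1C (Sevir.4G239100), a transcriptional coactivator that takes part in the heat response of *Arabidopsis*, had 20.4, 41.9, 134 and 96.2 CPM in ctrl_0h replicates A to D, and 2.79, 0.55, 1.44 and 1.64 CPM in ctrl_2h replicates A to D. Its groups did not overlap, and C and D held the highest levels (log2 fold change -5.42, SE 0.77, adjusted p = 6.54e-06). HSP70.4 (Sevir.3G222000), a cytosolic HSP70 chaperone, had 52.0, 87.3, 363 and 328 CPM at ctrl_0h and 10.9, 10.7, 6.35 and 7.37 CPM at ctrl_2h. Every ctrl_0h library lay above every ctrl_2h library, A and B by less than C and D (log2 fold change -4.53, SE 0.61, adjusted p = 2.34e-06). PUB29 (Sevir.1G190000), a U-box protein of the ubiquitin ligase type, had 4.31, 15.0, 50.3 and 55.9 CPM at ctrl_0h. At ctrl_2h it had 3 or fewer counts in each library, which makes it at least 38.4-fold lower (adjusted p = 1.99e-06). The calls of MBF1C, HSP70.4 and PUB29 were also made without C and D (adjusted p = 0.0014, 0.0018 and 0.001).

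Of 59 tested large heat shock proteins (HSP70, HSP90, HSP100 and DNAJ types), 10 were down-regulated and 4 up-regulated, with a median log2 fold change of -0.15. Of all tested genes 3.76% fell and 4.81% rose. Among the 10 falls was LQY1 (Sevir.1G117300), which is also on the list of photosystem II assembly and repair. HSP90.4 (Sevir.6G207201) had 206, 246, 522 and 535 CPM at ctrl_0h and 157, 126, 76.2 and 129 CPM at ctrl_2h. Its C and D levels were about 2-fold those of A and B, and A lay above all of ctrl_2h (log2 fold change -1.62, SE 0.30, adjusted p = 4.49e-04). Without C and D its fall was not called (log2 fold change -0.88, adjusted p = 0.11). A second HSP90.4 gene, Sevir.6G207050, had 217, 213, 444 and 417 CPM at ctrl_0h and 199.96, 204, 111 and 162 CPM at ctrl_2h, a smaller step between groups (log2 fold change -0.93, SE 0.28, adjusted p = 0.029). It was not called with C and D summed or left out (adjusted p = 0.11 and 0.6). The authors' counting could divide reads between these similar genes. HSP70 (Sevir.9G455800) fell by 1.36 on the log2 scale (SE 0.33, adjusted p = 0.0072), from 89.1, 84.1, 201 and 239 CPM to 78.3, 51.1, 34.4 and 72.3 CPM. The DNAJ gene Sevir.9G062400, whose product is a co-chaperone of HSP70, had 219, 232, 418 and 407 CPM at ctrl_0h and 152, 132, 107 and 128 CPM at ctrl_2h, with no overlap (log2 fold change -1.29, SE 0.20, adjusted p = 3.68e-05). The chloroplast chaperone HSC70-7 (Sevir.3G256300) had a log2 fold change of -0.84 (SE 0.20, adjusted p = 0.0052). The 4 members that rose were HSP70-1 (Sevir.9G032700, 0.92) and the DNAJ genes Sevir.1G259200 (0.67), Sevir.7G173700 (1.19) and Sevir.4G087200 (1.63), the last of which overlapped and was not called with C and D summed (adjusted p = 0.062). Without ctrl_0h A, B or D or ctrl_2h C, 2 members rose.

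Of 29 tested small heat shock proteins, 5 were down-regulated and 0 up-regulated (3.76% and 4.81% of all tested genes), and the median log2 fold change was -0.37. At an unadjusted p under 0.05, 8 were lower and 1 was higher, and DESeq2 and limma also called 5 lower and 0 higher. HSP17.4B (Sevir.1G349400) had 6.04, 7.20, 10.1 and 11.2 CPM at ctrl_0h and 4.82, 1.65, 2.02 and 1.64 CPM at ctrl_2h (log2 fold change -1.67, SE 0.43, adjusted p = 0.011). The lowest ctrl_0h library was close to replicate A of ctrl_2h, and the other ctrl_2h libraries were well below. HSP23.5 (Sevir.1G333300) had 0.862, 1.31, 5.03 and 8.95 CPM at ctrl_0h and no more than 1 count in any ctrl_2h library (adjusted p = 0.0025). Its mean was at least 4.94-fold lower at ctrl_2h. That bound rests on C and D, as replicate A of ctrl_0h held only 3 counts. HSP15.7 (Sevir.4G111300) had 1.15, 1.64, 6.47 and 7.83 CPM at ctrl_0h and 3 or fewer counts in each ctrl_2h library (adjusted p = 0.016). Its mean was at least 5.23-fold lower, a bound that also rests on C and D. HSP22 (Sevir.7G119800) and an HSP20 gene (Sevir.3G193900) had log2 fold changes of -0.82 and -0.60. Among 10 tested heat shock transcription factors, 1 was called, HSFBA2 (Sevir.7G215000), described as heat shock factor B2A, with 1.44, 4.58, 2.88 and 6.71 CPM at ctrl_0h and at least 4.77-fold less at ctrl_2h (adjusted p = 0.0087). A share of 1 in 10 is near the 8.58% called over all tested genes. HSFBA2 was not called without C and D (adjusted p = 0.068).

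The chaperone levels differed between the ctrl_0h libraries. The summed level of the large heat shock protein list was 5993 and 5900 CPM in A and B, 7441 and 7505 CPM in C and D, and 4558 to 5764 CPM at ctrl_2h. That of the small heat shock protein list was 624 to 702 CPM at ctrl_0h and 453 to 541 CPM at ctrl_2h. With C and D summed, 7 large and 5 small heat shock proteins were down-regulated, and with both left out 2 and 1. The falls still called with both left out were those of HSP70.4, the DNAJ gene Sevir.9G062400 and the HSP20 gene Sevir.3G193900. Among the falls not called then were HSP70 (Sevir.9G455800), HSC70-7, HSP23.5 and HSP15.7 (adjusted p = 0.43, 0.16, 0.15 and 0.42). Without ctrl_0h D or ctrl_2h D, 5 or 6 large heat shock proteins were down-regulated, and without ctrl_0h C 3 small ones. Some chaperone transcripts were still high at ctrl_1h, which is a separate set of 4 libraries, and others were not. At ctrl_1h HSP70.4 had 69.9, 126, 171 and 174 CPM and HSP90.4 (Sevir.6G207201) had 402, 494, 632 and 831 CPM, all above ctrl_2h. From ctrl_1h to ctrl_2h the log2 fold change was -3.92 for HSP70.4 (adjusted p = 6.19e-05) and -2.27 for HSP90.4 (adjusted p = 1.42e-05). From ctrl_0h to ctrl_1h it was -0.61 and 0.65, neither of which was called (adjusted p = 0.53 and 0.19). The HSP20 gene Sevir.3G193900, in contrast, had 182, 139, 149.6 and 155 CPM at ctrl_0h, 117, 85.5, 125 and 121 CPM at ctrl_1h and 109.99, 94.3, 102 and 107 CPM at ctrl_2h, with the fall of the first hour called (adjusted p = 0.05).

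**Figure D2:**
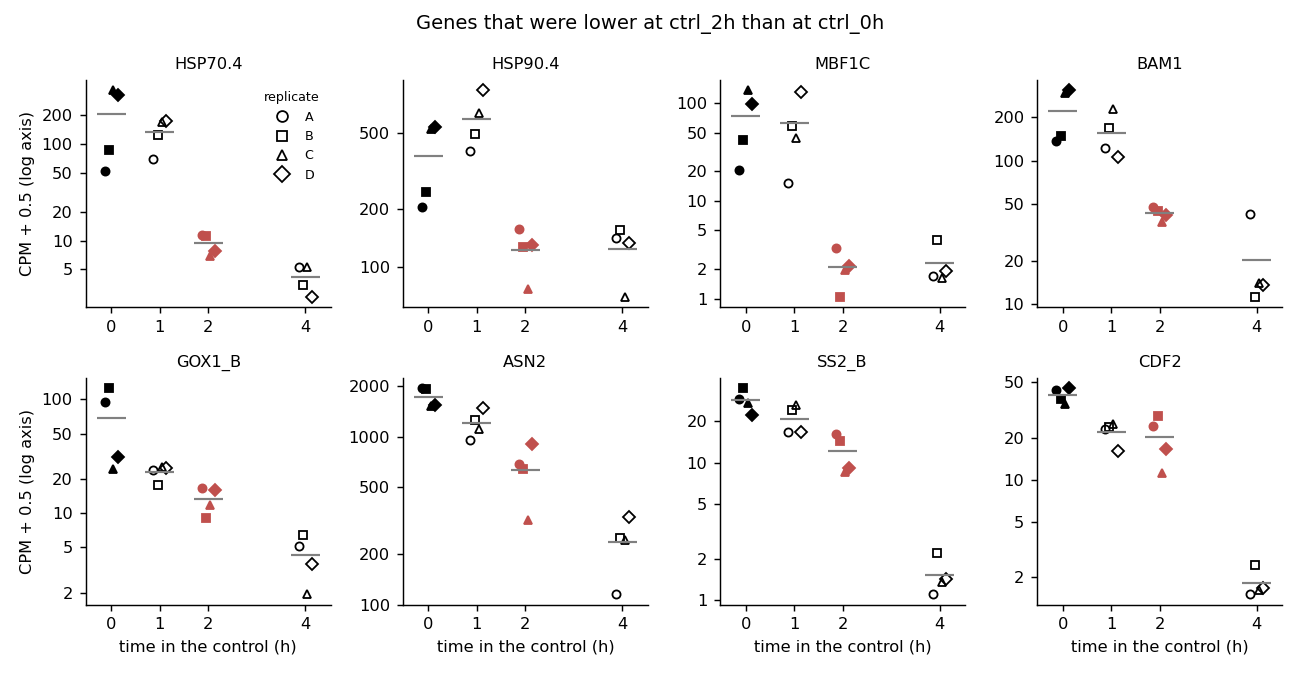
CPM plus 0.5 (log axis) of 8 genes lower at ctrl_2h in each control library at 0, 1, 2 and 4 h, with a symbol for each replicate letter, filled for the compared groups, and a grey bar at the mean of 4 libraries. HSP70.4, HSP90.4 and MBF1C were high at 0 and 1 h and low at 2 and 4 h. The means of HSP70.4, BAM1, GOX1_B, ASN2, SS2_B and CDF2 were lower at 4 h than at 2 h.

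Starch genes moved in both directions. Of 20 tested genes of starch degradation, 5 were up-regulated and 2 down-regulated (4.81% and 3.76% of all tested genes). The median log2 fold change was near 0. SEX1 (Sevir.4G161000), the glucan water dikinase that phosphorylates starch granules, had 12.1, 5.56, 12.9 and 10.1 CPM at ctrl_0h and 29.4, 36.3, 36.1 and 42.3 CPM at ctrl_2h. The groups were clearly apart (log2 fold change 1.85, SE 0.41, adjusted p = 0.0031). PHS1 (Sevir.9G083900), an alpha-glucan phosphorylase, had 14.4, 13.7, 7.91 and 9.51 CPM and then 28.9, 39.9, 47.1 and 34.1 CPM, again with no overlap (log2 fold change 1.66, SE 0.29, adjusted p = 1.81e-04). PHS2 (Sevir.5G389400) rose from 8.62, 10.8, 4.32 and 6.15 CPM to 25.6, 21.4, 34.9 and 31.7 CPM (log2 fold change 1.84, SE 0.45, adjusted p = 0.0074). The alpha-amylase gene AMY3 (Sevir.5G298000) had 7.76, 7.52, 6.47 and 10.1 CPM at ctrl_0h and 18.2, 17.3, 14.1 and 21.6 CPM at ctrl_2h, with a log2 fold change of 1.16 (SE 0.26, adjusted p = 0.0032). With C and D summed, 4 members rose and 2 fell, and with both left out 3 and 1. SEX4 (Sevir.9G578000), a phosphoglucan phosphatase, had the smallest called rise of the list (log2 fold change 0.49, SE 0.16, adjusted p = 0.043) and was not called with C and D summed (adjusted p = 0.12).

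Both down-regulated members of the starch degradation list were beta-amylase genes. BAM1 (Sevir.9G549100), an enzyme that releases maltose, had 135, 148, 296 and 307 CPM at ctrl_0h and 46.9, 44.3, 36.9 and 41.5 CPM at ctrl_2h. Replicates C and D stood at about 2-fold the level of A and B, which were themselves about 3-fold above ctrl_2h (log2 fold change -2.38, SE 0.47, adjusted p = 7.97e-04). Without C and D its call was made at an adjusted p of 0.048. BAM9 (Sevir.9G407700), whose *Arabidopsis* counterpart lacks catalytic activity, had 27.6, 16.7, 25.2 and 26.8 CPM and then 8.11, 9.62, 4.91 and 3.27 CPM, with C and D close to A (log2 fold change -1.88, SE 0.47, adjusted p = 0.0089).

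Of 16 tested genes of starch synthesis, 3 fell and 2 rose (3.76% and 4.81% of all tested genes). The 3 that fell encode starch synthases. SS2_B (Sevir.9G243600) had 28.7, 34.3, 26.6 and 21.8 CPM at ctrl_0h and 15.7, 14.0, 8.08 and 8.73 CPM at ctrl_2h (log2 fold change -1.27, SE 0.25, adjusted p = 0.0011). SS3 (Sevir.7G255700) had 197, 158, 175 and 186 CPM and then 116, 115, 94.1 and 114 CPM, with narrow spread in both groups (log2 fold change -0.70, SE 0.14, adjusted p = 8.15e-04). GBSS1 (Sevir.2G118600), the granule-bound synthase that makes amylose, had 1068, 967, 949 and 984 CPM and then 699, 591, 564 and 572 CPM (log2 fold change -0.71, SE 0.16, adjusted p = 0.0031). All 3 starch synthases were also called without C and D (adjusted p = 0.0026, 0.013 and 0.021). The branching enzyme SBE2.2_B (Sevir.4G298600, log2 fold change 1.03 (SE 0.22, adjusted p = 0.0024)) and the debranching enzyme ISA1 (Sevir.6G218500, 1.28 (SE 0.41, adjusted p = 0.046)) rose. The libraries of ISA1 overlapped, and it was not called with C and D summed (adjusted p = 0.077) or without ctrl_0h B (0.064).

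Photorespiration recovers the 2-phosphoglycolate made when Rubisco binds oxygen. Its list had 6 down-regulated and 1 up-regulated of 22 tested genes (3.76% and 4.81% of all tested genes), with a median log2 fold change of -0.18. GOX1_B (Sevir.2G039000), a glycolate oxidase, had 94.3, 125, 23.7 and 30.8 CPM at ctrl_0h and 15.97, 8.52, 11.3 and 15.6 CPM at ctrl_2h. Here replicates A and B were the high ones, and C and D were still above all of ctrl_2h (log2 fold change -2.45, SE 0.46, adjusted p = 4.91e-04). GDC-T (Sevir.7G255100), a subunit of glycine decarboxylase, had 329.7, 272, 365 and 348 CPM and then 174, 182, 202 and 189 CPM (log2 fold change -0.81, SE 0.15, adjusted p = 4.73e-04). HPR1 (Sevir.1G001200), hydroxypyruvate reductase, had 132, 156, 201 and 202 CPM and then 91.5, 91.3, 79.1 and 89.8 CPM (log2 fold change -0.97, SE 0.20, adjusted p = 0.0014). The remaining falls were those of PGLP1 (Sevir.7G156200, -1.19), the phosphatase of the first step, SHMT_C (Sevir.9G098000, -0.59), a serine hydroxymethyltransferase, and GCH (Sevir.7G291400, -0.57). PGLP1 had 140 CPM in ctrl_0h replicate B, which carries the index AK10751, against 73.0 to 93.9 CPM in A, C and D. Over all conditions it was higher with this index (log2 difference 0.81, adjusted p = 0.0023). Its fall was called in 13 of 22 alternative settings, and not without ctrl_0h B (adjusted p = 0.15). A second serine hydroxymethyltransferase gene, GLYA/SHMT (Sevir.3G305600), was the riser (0.59 (SE 0.19, adjusted p = 0.048)) and was not called with C and D summed (adjusted p = 0.12). Without C and D, 3 members of this list were down-regulated, among them GOX1_B (adjusted p = 3.26e-05). Catalase CAT2 (Sevir.9G557100), which removes the hydrogen peroxide that glycolate oxidase makes, had a log2 fold change of -0.61 (SE 0.19, adjusted p = 0.041) and an adjusted p of 0.11 with C and D summed.

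Of 16 tested genes of C4 carbon metabolism, 4 were down-regulated and 0 up-regulated in edgeR (3.76% and 4.81% of all tested genes). A negative log2 fold change was found in 14 of 16 (median -0.50). PPDK (Sevir.3G253900), which regenerates the CO2 acceptor, had 12926, 17438, 16316 and 16286 CPM at ctrl_0h and 10716, 10284, 10617 and 9892 CPM at ctrl_2h. The lowest ctrl_0h library, A, was above the highest of ctrl_2h (log2 fold change -0.60, SE 0.14, adjusted p = 0.0036). Carbonic anhydrase CA (Sevir.5G247800) had 7254, 8839, 9900.1 and 9886 CPM and then 6482, 6304, 5702 and 5283 CPM (log2 fold change -0.59, SE 0.16, adjusted p = 0.013). NADP-MDH (Sevir.6G256400), the malate-forming enzyme of the mesophyll chloroplast, and NAD-MDH2 (Sevir.9G221600) had log2 fold changes of -0.46 (SE 0.14, adjusted p = 0.032) and -0.37 (SE 0.12, adjusted p = 0.039). At an unadjusted p under 0.05, 11 were lower and 0 higher, DESeq2 called 6 lower and limma 4, and neither called any higher. With C and D summed, 3 were called lower by edgeR, without NAD-MDH2 (adjusted p = 0.066), and 2 without ctrl_0h B or D or ctrl_2h A, B or D. With both left out 0 were called, and 8 had an unadjusted p under 0.05. The pyruvate transporter BASS2 (Sevir.5G250900) fell by 0.43 on the log2 scale (SE 0.14, adjusted p = 0.04) and was not called with C and D summed (adjusted p = 0.082).

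The Calvin-Benson cycle list had 3 up-regulated and 3 down-regulated of 29 tested genes (4.81% and 3.76% of all tested genes). Genes for chaperones of Rubisco assembly were among the calls. RbcX (Sevir.2G369600) had 17.5, 17.7, 21.6 and 19.6 CPM at ctrl_0h and 42.1, 49.8, 40.4 and 55.9 CPM at ctrl_2h, and the groups did not overlap (log2 fold change 1.32, SE 0.17, adjusted p = 9.24e-07). The assembly factor gene RAF2 (Sevir.7G340300) fell from 106, 88.0, 109 and 101 CPM to 52.0, 49.8, 40.4 and 52.7 CPM (log2 fold change -1.05, SE 0.16, adjusted p = 2.08e-05). The transketolase gene TKL2_B (Sevir.5G386700) had a log2 fold change of 1.93 (SE 0.47, adjusted p = 0.0068), and the aldolase FBA (Sevir.7G299700) and Rubisco activase RCA2 (Sevir.8G261433) had -0.53 and -0.50. RCA2 was not called with C and D summed (adjusted p = 0.12). Leaving out C and D, 1 member of the list was called higher and 1 lower, and without ctrl_0h C, ctrl_0h D or ctrl_2h C 1 was lower.

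Among light-harvesting genes of photosystem II (PSII), 2 of 9 tested rose and 1 fell. LHCB1/2/3 (Sevir.3G146000), an antenna protein gene, had 855, 1269.8, 1131 and 1124 CPM at ctrl_0h and 3273, 5440.3, 4873 and 3367 CPM at ctrl_2h. Every ctrl_2h library was more than 2-fold above the highest ctrl_0h library (log2 fold change 1.95, SE 0.33, adjusted p = 1.38e-04). The call was also made without C and D (adjusted p = 0.007). A more abundant copy, Sevir.2G310200, had 17167, 19529.9, 15892 and 15972 CPM and then 26204, 29391, 24969 and 25112 CPM (log2 fold change 0.62, SE 0.20, adjusted p = 0.049). It was not called with C and D summed (adjusted p = 0.12) or with any 1 of the 8 libraries left out, and was called in 8 of 22 alternative settings, so that 1 of 9 antenna genes rose in the others. Antenna gene copies are similar in sequence, and the authors' counting could divide their reads. LHCb7 (Sevir.2G171200) fell from 57.2, 48.7, 68.3 and 50.9 CPM to 39.0, 29.7, 26.6 and 28.4 CPM (log2 fold change -0.86, SE 0.15, adjusted p = 2.26e-04). Of the PSI list, 2 of 21 tested genes were down-regulated, LHCa5 (Sevir.1G337400, -0.87) and HCF101 (Sevir.5G301900, -0.80), and of the 9 tested subunits of the PSII complex 0 were called by edgeR, DESeq2 or limma and 0 had an unadjusted p under 0.05, although all 9 had a log2 fold change above 0. LHCa5 was not called with C and D summed (adjusted p = 0.057). Of all tested genes 4.81% rose and 3.76% fell.

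Of 41 tested genes of PSII assembly and repair, 6 were down-regulated and 3 up-regulated (3.76% and 4.81% of all tested genes). HCF173_B (Sevir.4G283600), needed for translation of the D1 protein in *Arabidopsis*, had 91.4, 85.4, 94.9 and 90.0 CPM at ctrl_0h and 47.9, 58.3, 53.7 and 56.5 CPM at ctrl_2h (log2 fold change -0.74, SE 0.14, adjusted p = 5.90e-04). The other falls were LQY1 (Sevir.1G117300, -0.69), CTPA (Sevir.1G370800, -0.88), HCF244 (Sevir.6G252900, -0.62), OHP2 (Sevir.5G216400, -0.58) and Psb28 (Sevir.5G452900, -0.53). LQY1 was already counted among the falls of the large heat shock protein list. It was higher with the index AK10751 over all conditions (edgeR adjusted p = 0.02). Its fall was not called without ctrl_0h B (adjusted p = 0.065). The rises were PDI6 (Sevir.8G068800, 1.85 (SE 0.35, adjusted p = 4.91e-04)), a protein disulfide isomerase, PAM68_A (Sevir.9G349200, 1.08 (SE 0.22, adjusted p = 0.0013)) and NMA111 (Sevir.1G299400, 0.88 (SE 0.22, adjusted p = 0.0081)). Of the falls, HCF244 was not called with C and D summed (adjusted p = 0.066). Leaving out C and D, 2 fell and 2 rose. The number of falls was 1 without ctrl_0h B, 2 without ctrl_2h B and 3 without ctrl_2h D, and 3 members rose each time. Of 12 tested photoprotection genes, 3 fell, all 3 of the stress enhanced protein type. With C and D summed 2 fell, and with both left out 1. SEP3 (Sevir.1G101700) was called in 9 of 22 alternative settings (adjusted p = 0.07 with C and D summed). SEP1 and SEP5 (Sevir.1G232800) were higher with the index AK10751 over all conditions (adjusted p = 0.0065 and 0.014), and both were still called with the index as a covariate. SEP1 (Sevir.8G209900) had 1092, 1396, 1069 and 1119 CPM and then 858, 693, 612 and 709 CPM (log2 fold change -0.70, SE 0.16, adjusted p = 0.005).

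Other chloroplast lists were split. Of 32 tested genes of the NDH complex 1 rose and 3 fell, of 12 of the cytochrome b6f complex 2 rose and 2 fell, and of 16 of transport 1 rose and 1 fell. The shares over all tested genes were 4.81% and 3.76%. TOC159 (Sevir.5G213500), a receptor for protein import, had 8.34, 5.89, 8.63 and 11.7 CPM at ctrl_0h and 34.2, 43.4, 28.3 and 28.4 CPM at ctrl_2h, with no overlap (log2 fold change 1.99, SE 0.32, adjusted p = 4.06e-05). CcdA (Sevir.7G326600), a thylakoid thiol transporter used in cytochrome assembly, had 7.47, 4.58, 8.63 and 5.03 CPM and then 22.8, 32.7, 24.8 and 21.0 CPM (log2 fold change 2.00, SE 0.24, adjusted p = 2.11e-07). NDF5 (Sevir.9G091100), an accessory protein of the chloroplast NDH complex, had a log2 fold change of 1.49 (SE 0.22, adjusted p = 1.33e-05), while the subunits NdhT (Sevir.8G098400) and NdhM (Sevir.7G193300) had -0.83 and -0.68. Of 10 tested genes of chlorophyll synthesis 2 rose and 1 fell. PORA (Sevir.9G204800), which reduces protochlorophyllide, had 533, 639, 677 and 633 CPM and then 951, 1305, 1117 and 927 CPM (log2 fold change 0.79, SE 0.20, adjusted p = 0.011). A gene described as a putative 30S ribosomal protein (Sevir.9G004800) had 6.32, 11.8, 4.32 and 14.5 CPM at ctrl_0h and 50.4, 97.9, 111 and 76.7 CPM at ctrl_2h, among the 8 largest rises (log2 fold change 3.17, SE 0.26, adjusted p = 8.67e-11). The plastoglobule list had 5 down-regulated and 2 up-regulated of 29 tested genes, and its rises were the fibrillin FBN7a/FBN7b (Sevir.3G030100, 1.34 (SE 0.17, adjusted p = 7.93e-07)) and the heme-binding protein HBP3 (Sevir.1G183900, 0.95 (SE 0.16, adjusted p = 8.93e-05)).

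**Figure D3:**
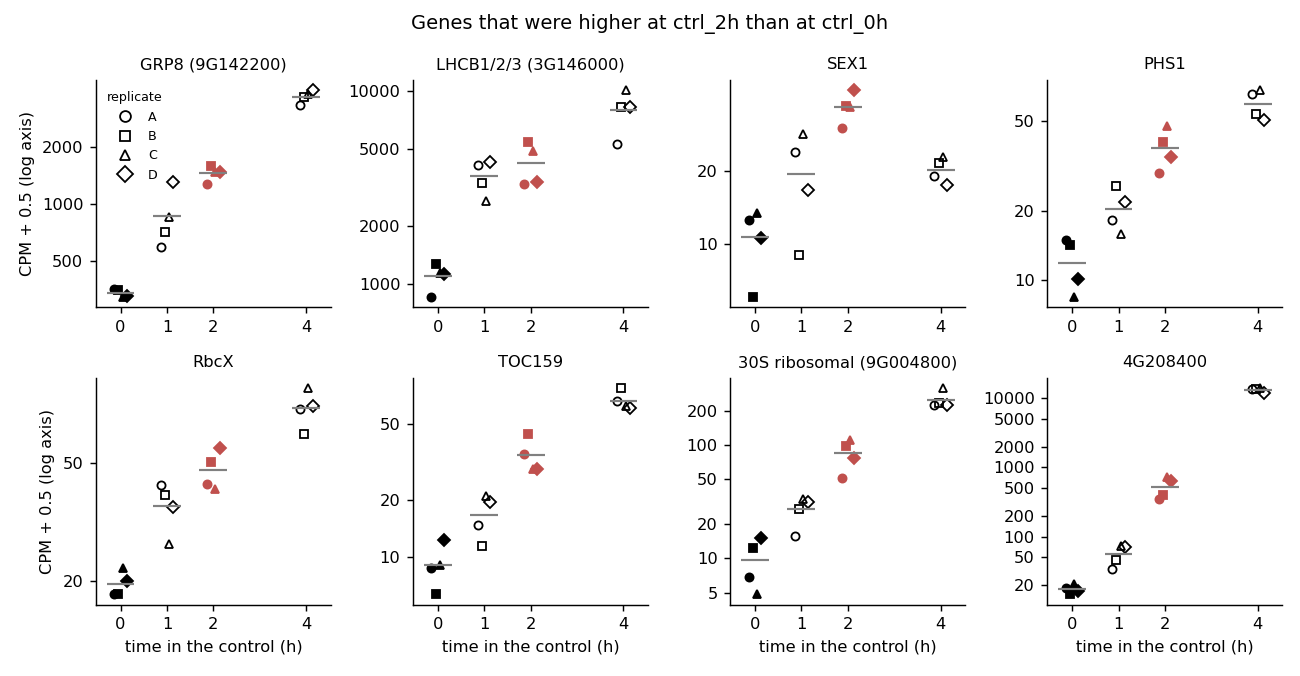
CPM plus 0.5 (log axis) of 8 genes higher at ctrl_2h in each control library at 0, 1, 2 and 4 h, with a symbol for each replicate letter, filled for the compared groups, and a grey bar at the mean of 4 libraries. The 4 ctrl_2h libraries lay above the 4 ctrl_0h libraries in all 8 genes, and SEX1 alone of the 8 had a lower mean at 4 h than at 2 h.

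Of 5 tested genes of the cycling DOF and GRP types, which are known for daily rhythms, 2 rose and 1 fell (4.81% and 3.76% of all tested genes). A GRP8 gene (Sevir.9G142200), named after an *Arabidopsis* RNA-binding protein under circadian control, had 355, 353, 325 and 329 CPM at ctrl_0h and 1276, 1579.8, 1475 and 1469 CPM at ctrl_2h. The groups were separated by more than 3-fold, with a narrow range in each (log2 fold change 2.09, SE 0.18, adjusted p = 3.48e-10). A second GRP8 gene (Sevir.3G419300) had 6501, 6595, 6061 and 6099 CPM and then 10698, 11507, 12329 and 11075 CPM (log2 fold change 0.85, SE 0.12, adjusted p = 4.36e-06). CCL (Sevir.5G066700), described as CCR-like, had a log2 fold change of 0.79 (SE 0.20, adjusted p = 0.0095). CDF2 (Sevir.5G052000), a DOF-type transcription factor of the cycling group, fell from 43.1, 37.3, 34.5 and 44.7 CPM to 23.6, 28.0, 10.7 and 16.1 CPM (log2 fold change -1.03, SE 0.25, adjusted p = 0.006). The clock genes with an annotation were 3. PRR7 (Sevir.2G456400), a repressor of morning clock genes in *Arabidopsis*, had 50.6, 51.0, 49.6 and 62.1 CPM and then 66.7, 86.9, 94.1 and 73.1 CPM (log2 fold change 0.59, SE 0.19, adjusted p = 0.04), and was not called with C and D summed (adjusted p = 0.067). RVE2 (Sevir.4G300400), a MYB-like factor of the clock family, had 66.4, 60.8, 86.3 and 86.1 CPM and then 37.8, 44.8, 36.7 and 51.3 CPM (log2 fold change -0.80, SE 0.20, adjusted p = 0.0076). ZTL (Sevir.1G085500), an F-box blue light receptor, had a log2 fold change of -0.09 (SE 0.16, adjusted p = 0.78), and its groups overlapped.

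Most tested genes of nitrogen assimilation, sucrose metabolism, SWEET sugar export and water transport were not called. Over all tested genes 4.81% rose and 3.76% fell. ASN2 (Sevir.9G444800), an asparagine synthetase, had 1939, 1909, 1516 and 1548 CPM at ctrl_0h and 684, 638, 320.4 and 900.1 CPM at ctrl_2h, with no overlap (log2 fold change -1.44, SE 0.27, adjusted p = 4.66e-04). Of 7 tested nitrogen assimilation genes it was the single call. Of 5 tested sulfur assimilation genes 3 fell, SERAT3;2 (Sevir.9G554900, -1.39 (SE 0.30, adjusted p = 0.0022)), which makes O-acetylserine, and the sulfate transporters SULTR3;1 (Sevir.5G301200, -0.88) and SULTR3;3 (Sevir.7G276700, -0.61). The aquaporin PIP2;2 (Sevir.7G179900) had 24.4, 19.6, 23.0 and 33.5 CPM and then 4.82, 6.32, 8.08 and 9.28 CPM (log2 fold change -1.81, SE 0.27, adjusted p = 1.33e-05). Among 12 tested aquaporins 3 fell and 1 rose, NIP5;1 (Sevir.1G325000, 1.02 (SE 0.32, adjusted p = 0.039)). The sucrose synthase SUS3 (Sevir.9G414900) had 44.0, 48.1, 46.7 and 38.0 CPM and then 10.1, 21.4, 21.9 and 16.6 CPM (log2 fold change -1.34, SE 0.26, adjusted p = 6.05e-04), and the sucrose exporter SWEET11 (Sevir.3G333000) fell by 0.59 on the log2 scale (SE 0.18, adjusted p = 0.037). With C and D summed, SULTR3;3, NIP5;1 and SWEET11 were not called (adjusted p = 0.056, 0.056 and 0.078). NCED1 (Sevir.3G426300), described as a carotenoid cleavage dioxygenase, had 133, 123, 157 and 153 CPM and then 71.7, 64.3, 78.2 and 67.4 CPM (log2 fold change -1.0, SE 0.23, adjusted p = 0.0042), 1 of 2 falls among 10 tested genes of abscisic acid synthesis.

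Most tested members of the cytosolic ribosomal protein list had small positive log2 fold changes that did not pass the test. Of 108 tested, 7 were up-regulated and 0 down-regulated in edgeR (37 and 2 at an unadjusted p under 0.05, 8 and 1 in DESeq2), and 93 had a log2 fold change above 0 (median 0.46, against 0.04 for all tested genes). The share called, 7 of 108, is close to the 8.58% of all tested genes. Names come from tables that mostly hold genes called in the study's own stress comparisons on these libraries, so the list is not an independent sample of ribosomal proteins. Its members are also uneven over the genome, as most have identifiers of chromosomes 1 to 3. The count above 0 and the median therefore hold for the listed genes and not for the whole family. A ribosomal L23/L15e protein gene (Sevir.2G050900) had 60.1, 55.6, 51.1 and 61.5 CPM at ctrl_0h and 109.7, 131, 74.8 and 101 CPM at ctrl_2h (log2 fold change 0.87, SE 0.26, adjusted p = 0.031), with an adjusted p of 0.067 when C and D were summed. The summed level of the list was 4215 to 5016 CPM at ctrl_0h and 6096, 7699, 5138 and 5271 CPM in ctrl_2h replicates A to D. The number of up-regulated members was 0 to 6 when single libraries were left out, with 0 when ctrl_2h replicate B was left out, and 3 with C and D summed. The median stayed between 0.30 and 0.55 in these settings.

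**Figure D4:**
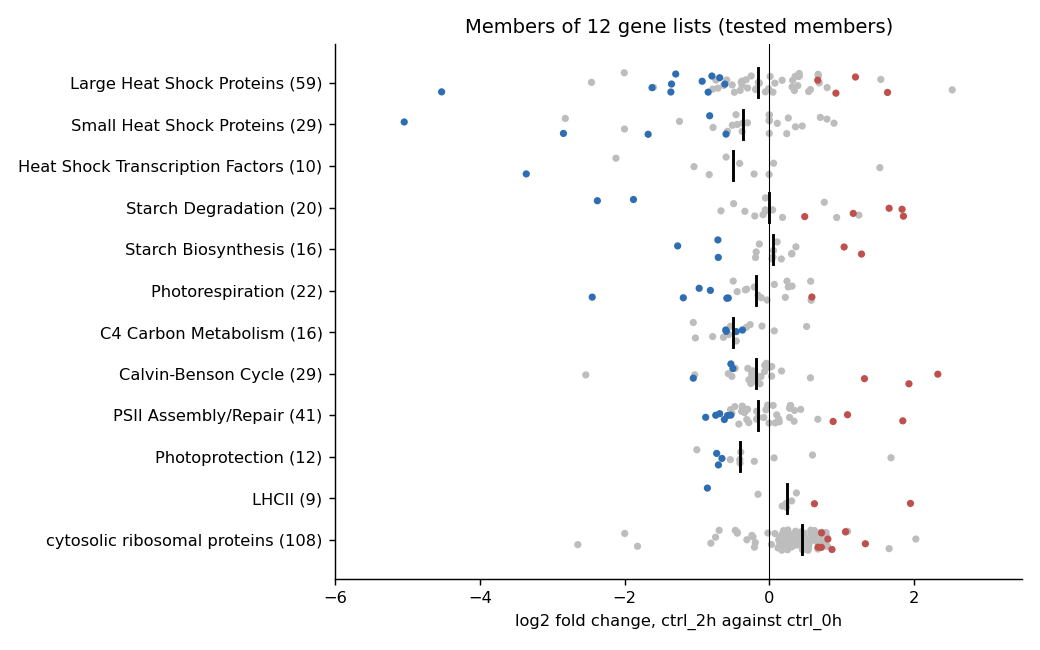
Log2 fold change at ctrl_2h against ctrl_0h (x axis) of tested members of 12 gene lists, with the number tested in parentheses. Members called higher are red, members called lower blue and members not called grey, with a black bar at the median. The large heat shock protein gene Sevir.7G078100 (4.65, not called) lies beyond the right end of the axis and is not drawn. The medians of the small heat shock protein and C4 lists were -0.37 and -0.50, and that of the cytosolic ribosomal proteins 0.46.

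The largest rises among genes of at least 10 CPM were mostly in genes for which the tables gave no name. Sevir.4G208400 had 17.5, 14.1, 20.1 and 15.7 CPM at ctrl_0h and 353, 392, 724 and 626 CPM at ctrl_2h, 31.3-fold higher with a narrow range at ctrl_0h (log2 fold change 4.97, SE 0.39, adjusted p = 1.98e-11). At ctrl_4h it had 13592, 13699.6, 13975 and 11872 CPM. Sevir.5G236000 (4.43 (SE 0.53, adjusted p = 2.10e-07)) and Sevir.5G475300 (3.49 (SE 0.58, adjusted p = 8.13e-05)) were also called without C and D. Sevir.9G109000 and Sevir.2G033800 rose unevenly. Sevir.9G109000 had 2.87, 14.1, 5.03 and 4.47 CPM at ctrl_0h and 461, 27.5, 56.9 and 284 CPM at ctrl_2h, with A and D far above B and C (log2 fold change 4.91, SE 1.10, adjusted p = 0.0033). Sevir.2G033800 had 49.4, 159.6, 165 and 164 CPM and then 1281, 200.1, 466 and 2578 CPM (log2 fold change 3.08, SE 0.98, adjusted p = 0.042), again with A and D high, and it was called in 12 of 22 alternative settings. Among described genes, the rhodanese-like phosphatase family gene Sevir.2G293100 had 25.0, 18.3, 24.5 and 26.8 CPM and then 117, 175, 178 and 139 CPM (log2 fold change 2.69, SE 0.19, adjusted p = 2.45e-12), and the EF-hand calcium-binding gene Sevir.9G372700 had 6.32, 14.4, 12.9 and 11.7 CPM and then 58.3, 46.7, 70.7 and 64.1 CPM (log2 fold change 2.43, SE 0.22, adjusted p = 7.02e-10).

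Cell type markers moved little and mostly down. Of genes that the study assigned to the mesophyll, 10 of 169 tested rose and 23 fell (median -0.16), and of bundle sheath genes 6 of 136 rose and 20 fell (median -0.11). Over all tested genes the shares were 4.81% and 3.76%. In whole leaf segments, fewer cells of a type and less RNA per cell cannot be told apart. The summed mesophyll level was 138600 to 155700 CPM at ctrl_0h and 140400 to 162900 CPM at ctrl_2h, and the summed bundle sheath level 103500 to 115300 and 105800 to 128800 CPM, so the groups overlapped for both. The mesophyll markers PEPC_A and CA_A were not called (log2 fold changes -0.32 and -0.78), nor were the bundle sheath markers NADP-ME, RBCS_A and RBCS_B (-0.26, -0.23 and -0.17). The mesophyll genes PPDK (Sevir.3G253900) and NADP-MDH (Sevir.6G256400) fell as given above. Further genes of these names, PPDK Sevir.2G348700 (-0.46, adjusted p = 0.053) and NADP-MDH Sevir.2G142300 (-0.56, adjusted p = 0.14), were not called. The leaf markers LHCb4 and PsbO leaned upward (0.23 and 0.37) and were not called. Leaf markers were detected in all 8 libraries at very different levels. Without TMM scaling, RBCS_A had 4695 to 6130 CPM, while PEPC_A had 37.9 to 64.0 CPM and CA_A 10.4 to 36.0 CPM. PEPC_A and CA_A are therefore low-level copies beside PPDK (Sevir.3G253900). The early light-induced protein genes had 0 to 15.8 CPM without TMM scaling in all 8 libraries, HSP21 had at most 0.545, and HSFA2A had a log2 fold change of -0.21. Of the stress markers, HSP22 (Sevir.7G119800) alone passed the test, with the fall given above.

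The 2 h were also split at ctrl_1h, which shares ctrl_0h or ctrl_2h with the comparison above. From ctrl_0h to ctrl_1h, 561 genes rose and 296 fell (6.00% of the tested genes together), and from ctrl_1h to ctrl_2h 316 rose and 588 fell (6.32%). The 688 genes higher at ctrl_2h had a median log2 change of 0.69 in the first hour and 0.45 in the second, and the 538 lower genes had -0.41 and -0.50. A test of the second hour's change against the first called 758 genes (5.30%), 167 with the larger value in the second hour and 591 with the larger value in the first. With total counts in place of TMM factors these were 236 and 366. Of the 1226 genes called over 2 h, 115 were in this set. HSP90.4 (Sevir.6G207201) and MBF1C were not called in the first hour and fell in the second (difference -2.92, adjusted p = 3.22e-04, and -4.95, adjusted p = 0.0042). NDF5 (Sevir.9G091100) and PDI6 (Sevir.8G068800) rose in the first hour and changed by 0.04 and -0.19 in the second (adjusted p of the difference = 0.014 and 0.0094).

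Libraries of ctrl_1h and ctrl_4h share none with the comparison of ctrl_2h and ctrl_0h, and show whether its genes moved the same way in other leaves. Of the 688 genes higher at ctrl_2h, 473 were called higher at ctrl_4h than at ctrl_1h (68.8%, against 12.6% of all tested genes, of which 26.0% were called either way) and 2 lower, and 646 had a positive log2 fold change (median 0.97). Of the 538 genes lower at ctrl_2h, 368 were called lower at ctrl_4h than at ctrl_1h (68.4%, against 13.4%) and 1 higher, with a median of -0.92. The median of all tested genes was 0.01. GRP8 (Sevir.9G142200) had 591, 709, 857 and 1301 CPM at ctrl_1h and 3324, 3667, 3781 and 3978 CPM at ctrl_4h, with no overlap (log2 fold change 2.09, adjusted p = 3.09e-11). SS2_B (Sevir.9G243600) had 16.3, 23.6, 25.9 and 16.1 CPM at ctrl_1h and 0.605, 1.72, 0.853 and 0.939 CPM at ctrl_4h (-4.30, adjusted p = 2.64e-12). SEX1 (Sevir.4G161000) did not move this way, with 23.4, 8.49, 27.7 and 16.1 CPM and then 18.6, 20.9, 22.2 and 16.9 CPM (0.04, adjusted p = 0.95). Of the genes named here, Sevir.9G109000 had a log2 fold change of -1.13 and Sevir.2G033800 of -0.03 between ctrl_1h and ctrl_4h, and neither was called. Further named genes were not called either. Among them were the antenna gene Sevir.2G310200 (-0.01, adjusted p = 0.98), the HSP20 gene Sevir.3G193900 (-0.19, adjusted p = 0.37) and HSP15.7 (-1.49, adjusted p = 0.22). FBA (-0.37, adjusted p = 0.057) and the ribosomal gene Sevir.2G050900 (0.25, adjusted p = 0.51) were others.

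**Figure D5:**
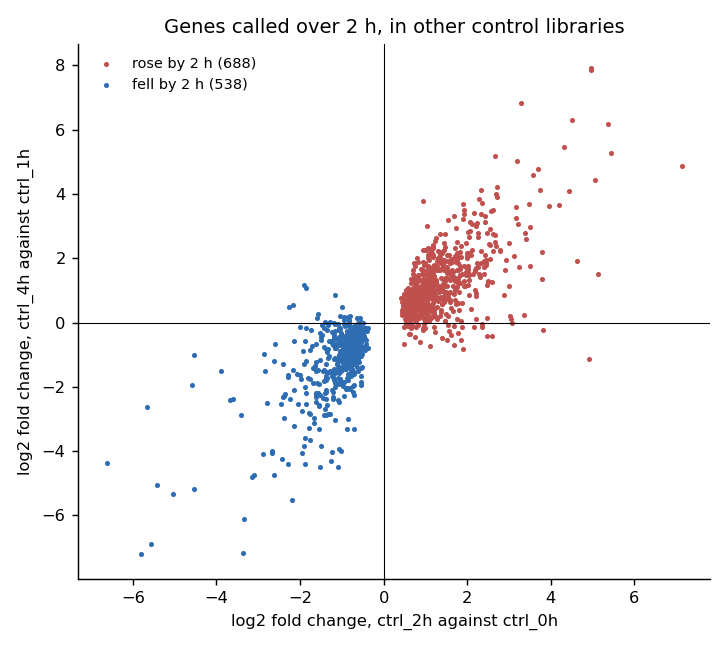
Each point is 1 of the 1226 genes called over 2 h, placed by its log2 fold change at ctrl_2h against ctrl_0h (x axis) and at ctrl_4h against ctrl_1h (y axis), which come from different libraries. Of the 688 red genes that rose, 646 lie above 0 on the y axis, and of the 538 blue genes that fell, 21 do.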

How the data were processed

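The 8 libraries of ctrl_0h and ctrl_2h were analysed with the other control, high light and high temperature libraries, which share 1 estimate of the spread. The authors made QuantSeq 3′ libraries, used 1 read of each pair after trimming (Trim Galore 0.6.2), and quantified it with Salmon 1.1.0 against version 2 transcripts of *S. viridis* (per the labels' processing notes and the study's methods). The authors deposited whole-number estimated counts per gene and a TPM file per library, whose values are proportional to the counts, with no division by gene length. Of 40 count columns, 1 was not used, because its header and its values name different conditions.

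Of 38239 genes, the 14293 that reached 10 counts in 4 or more of 39 libraries were tested. The test was edgeR 4.0.16 in R 4.3.3 (TMM factors, glmQLFit, glmQLFTest, 1 term per condition), with Benjamini-Hochberg adjustment over all tested genes and calls at an adjusted p under 0.05. Where no library of a group exceeded 3 counts, 3 counts per library stood in for it. This gives a lower bound of the fold change between group means, and not between single libraries. SE is that of the fitted log2 fold change. On simulated counts for this comparison, changes were set only in genes above 10 CPM at ctrl_0h. Of genes changed by 1 log2 unit 65% were recovered, and of those changed by 2 98%, with 6 false calls among 14293 genes. Each library was drawn independently, without the likeness of ctrl_0h C and D or an index effect. The error rate in the real libraries and the recovery at lower levels were therefore not tested. DESeq2 1.42.0 and limma 3.58.1, on log2(TPM + 1) and log2(TPM + 0.1), were alternatives, as were other scalings, filters, sets of libraries, the second index as a covariate, libraries thinned to 1422507 counts and a replicate block.

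Names and pathway lists came from the study's supplementary tables, which name or describe 3770 of the tested genes, mostly genes called in its stress comparisons. Named genes were the 8 largest rises and falls among non-overlapping genes of at least 10 CPM, with the next described genes up to 8 each way, up to 3 called members of each of 66 lists, the clock genes, and the 5 most abundant described genes each way. Other called list members were named after their values were seen. The lists, the rule and the comparison were chosen with earlier results of these data known. Promoter motifs were not analysed here.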

Additional observations from a re-analysis of the deposited data

Results flagged for a closer look

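In 12 of 268 groups of 4 libraries checked for the named genes, 1 library stood far from the other 3 by Dixon's criterion. Chance marks about 1 group in 20. In ctrl_0h replicate B the EF-hand gene Sevir.4G271100 had 37.3 CPM against 1.44 to 5.17 in the others, Sevir.6G026400 had 167 CPM against 4.60 to 10.6, TPPB.1.2 (Sevir.2G195900), a trehalose phosphatase gene, had 137 CPM against 38.5 to 48.9, NdhT (Sevir.8G098400) had 305 CPM against 218 to 227, and SEP1 (Sevir.8G209900) had 1396 CPM against 1069 to 1119. Replicate B alone of the 8 libraries carries the index AK10751. Over all conditions, libraries with this index were higher in NdhT (log2 difference 0.36, adjusted p = 0.01) and SEP1 (0.33, adjusted p = 0.0065), and the other 3 genes were not called between indices (edgeR adjusted p = 0.91, 0.6 and 0.084). In ctrl_0h replicate A, Sevir.2G033800 had 49.4 CPM against 159.6 to 164.7, and BASS2 (Sevir.5G250900) had 2957 CPM against 3576 to 3659. Sevir.5G236000 had 4.32 CPM in ctrl_0h replicate C against 0.327 to 0.575, and PRR7 (Sevir.2G456400) had 62.1 CPM in D against 49.6 to 51.0. At ctrl_2h, HSP17.4B (Sevir.1G349400) had 4.82 CPM in replicate A against 1.64 to 2.02, HSP23.5 (Sevir.1G333300) had 0.253 CPM there, which is 1 count, against 0 in the others, and HPR1 (Sevir.1G001200) had 79.1 CPM in replicate C against 89.8 to 91.5.

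The second hour differed from the first in 20 of the named genes (edgeR test of the difference, adjusted p under 0.05). The genes of the heat shock group among them were not called in the first hour and fell in the second. The log2 difference was -2.92 for HSP90.4 (Sevir.6G207201), -3.32 for HSP70.4 (Sevir.3G222000), -4.95 for MBF1C (Sevir.4G239100), -3.27 for the DNAJ gene Sevir.3G149800 and -2.36 for HSP17.4B. It was -5.37 for HSP23.5 and -4.08 for HSFBA2 (Sevir.7G215000), where ctrl_2h had 3 or fewer counts per library, so that the size depends on the prior count. Sevir.6G219000, with no name, had -5.13 and the aquaporin PIP2;2 (Sevir.7G179900) -1.46.

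Other genes rose in the first hour and were not called in the second. The difference was -1.41 for NDF5 (Sevir.9G091100), -2.23 for PDI6 (Sevir.8G068800), -2.30 for ISA1 (Sevir.6G218500), -1.21 for PRR7, -1.36 for the antenna gene Sevir.2G310200, -1.27 for the ribosomal L21 gene Sevir.1G012300 and -2.05 for the chloride channel gene Sevir.7G272500. It was -5.89 for Sevir.9G109000 and -5.21 for Sevir.2G033800, whose ctrl_2h libraries were uneven. SWEET11 (Sevir.3G333000) fell by 0.91 in the first hour and changed by 0.32 in the second (difference 1.23), and HBP3 (Sevir.1G183900) changed by 0.02 and then 0.92 (difference 0.90).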

How the results depend on the processing

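For genes higher at ctrl_2h than at ctrl_0h, 688 in the reported fit, the count was 426 with libraries thinned to equal depth, 329 without ctrl_0h C and D and 412 for changes of at least 2-fold. For genes lower at ctrl_2h than at ctrl_0h, 538 in the reported fit, it was 351, 260 and 212. With single libraries left out, the counts were 493 to 575 higher and 337 to 480 lower. DESeq2 called 686 higher and 705 lower, limma with a pseudocount of 0.1 called 974 and 434 (69.2% higher), and a fit of the 8 libraries alone 699 and 770. Total counts in place of TMM factors gave 61.9% and not 48.5% of the calls between ctrl_1h and ctrl_4h in the higher direction, and 39.2% and not 22.0% of those between the 2 hours as positive. The second index as a covariate, which for the single-hour steps was added after the data were seen, left all counts within 1.5-fold. The cause of these differences was not tested. Of 133 named genes that were called, 45 were called in every one of the 22 alternatives that could be fitted to them, none changed sign, and 78 were not called without ctrl_0h C and D, which leaves 2 libraries at that time. The depth of C and D limits calls at low levels, where 3 counts were 1.42 CPM on average at ctrl_0h and 0.817 CPM at ctrl_2h.

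The replicate letters are shared by both times, and the methods do not say what they stand for. Deviations from the group means of same-lettered libraries correlated at 0.06, -0.04, -0.04 and -0.03 across genes. Libraries with different letters ranged from -0.093 to 0.104. These values cannot tell shared handling from none, and a link between same-lettered libraries was not tested. With the replicate block, 574 genes were higher and 672 lower.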

Other observations

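Further lists held genes called in both directions over the 2 h, when 4.81% of all tested genes rose and 3.76% fell. Of 56 tested calcium signaling genes, 6 rose and 3 fell. Of 55 tested phenylpropanoid and flavonoid genes, 5 rose and 7 fell, with the NmrA-like gene Sevir.5G069100 (log2 fold change 2.78) and CYP81D4 (Sevir.9G082000, 2.05) among the rises and the flavonoid hydroxylase CYP75B1 (Sevir.9G399900, -1.88) among the falls. Of 30 tested glutathione S-transferase genes, 4 rose and 2 fell. Of 24 tested AP2/ERF transcription factors, 1 rose and 3 fell, ERF9 (Sevir.3G196300, -1.52), ERF4 (Sevir.1G079900, -0.99) and ERF5 (Sevir.1G261900, -0.81). The tables that gave these names hold mostly genes called in the study's stress comparisons on the same libraries.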
